A study of Mus musculus with 3 samples.

Results

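Integrin and laminin genes were followed across 3 libraries of mouse corneal RNA. The members were the protein-coding genes of the deposited table whose symbols name an integrin alpha chain, an integrin beta chain from Itgb1 to Itgb8, or a laminin alpha, beta or gamma chain. There were 37 such genes among the 21760 of the table: 18 alpha chains, 8 beta chains and 11 laminin chains. Of these, 32 had at least 20 counts in at least 1 library and are called measured. The cornea is the transparent front of the eye. Mice behind the PNU-282987 library received this α7 nicotinic receptor agonist as eyedrops, 3 times daily. Whether their lacrimal glands were intact is not stated in the labels. The excision library came from mice after lacrimal gland excision, which takes away the source of the watery tear and is used to model dry eye. The sham library came from mice with a cut in the same place and intact glands. Strain, age, duration and the number of corneas per library are not given in the labels. The series concerns the α7 receptor in dry eye disease.

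Each group had 1 library, so there was no spread between animals to set a difference against. No test was made, and every comparison is between libraries. Total counts were 39616004 for PNU-282987, 37692972 for excision and 37703843 for sham, and the members took 0.111%, 0.144% and 0.129% of them in that order. Ratios are of counts scaled to library size with TMM factors, and each fold carries its 95% counting interval. A gene counts as called where its scaled counts differ by 2-fold or more and the interval leaves out equal levels. The tissue label was checked on marker lists. The 18 corneal epithelial markers were all measured and summed, in scaled CPM (counts relative to library size), to 104346 in PNU-282987, 88221 in excision and 92417 in sham. Lens markers, from the tissue behind the cornea, summed to 788 CPM in PNU-282987, 170.1 CPM in excision and 848 CPM in sham. Conjunctiva and gland markers, all 14 in the table and 13 measured, summed to 5893 CPM in PNU-282987, 3818 CPM in excision and 2287 CPM in sham. Of the 13, 10 were called higher in PNU-282987 than in sham, against 2.58% of all measured genes. In PNU-282987 against excision 7 were called higher, against 3.9%. Gp2, Muc5ac, Muc5b and Scgb2b2, called in both comparisons, were measured through the PNU-282987 library alone, an entry that favours such a call. Between excision and sham, 4 of the 13 were called higher in excision and 2 lower, against 4.01% and 5.48% of all measured genes. Muc5ac, a goblet cell mucin, had 2980, 11 and 1 counts in PNU-282987, excision and sham, and Gp2 had 3801, 4 and 5. The PNU-282987 library stood apart in these genes, and the part of such tissue in any member's value was not tested. Corneal endothelium markers were lowest in excision. In bulk RNA, fewer cells of a type and less RNA per cell cannot be told apart.

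Integrins are receptors made of an alpha and a beta chain that fasten cells to the surrounding matrix or to other cells, and the pairing sets the ligand. Laminins are cross-shaped trimers of an alpha, a beta and a gamma chain that form the base layer of basement membranes. In the cornea the basal epithelial cells are held to their basement membrane by hemidesmosomes, in which the pair of Itga6 and Itgb4 binds a laminin that contains Lama3 and Lamb3 chains. Leukocytes carry integrins of their own, mostly built on Itgb2 or Itgb7.

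The chains that attach epithelium were well measured. Per kilobase of the longest coding transcript in GENCODE M21, the highest alpha-chain levels in the PNU-282987 library were those of Itga6 at 50.8 CPM per kb, Itgam at 38.2, Itga3 at 10.5 and Itgav at 8.43. The same 4 genes led in the excision library, at 52.0, 54.0, 16.7 and 7.94 CPM per kb, and in the sham library, at 44.97, 37.6, 16.6 and 7.79 CPM per kb. Itgam and Itga6 thus changed places in the excision library. Among beta chains Itgb5, Itgb1, Itgb7 and Itgb4 stood at 25.8, 25.5, 19.5 and 14.1 CPM per kb in PNU-282987. In excision they stood at 21.1, 21.5, 18.7 and 26.4, and in sham at 22.05, 27.9, 14.2 and 19.3. Itgb4 was therefore the lowest of these 4 beta chains in PNU-282987 and the highest in excision. Of the summed laminin alpha-chain level per kb, Lama3 made up 53.6% in PNU-282987, 50.2% in excision and 53.0% in sham. Lama5 made up 44.3%, 48.1% and 43.6% in the same order, so these 2 chains held nearly all of it in each library. The lengths are an approximation, because the annotation the authors counted on is not known here.

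**Figure D1:**
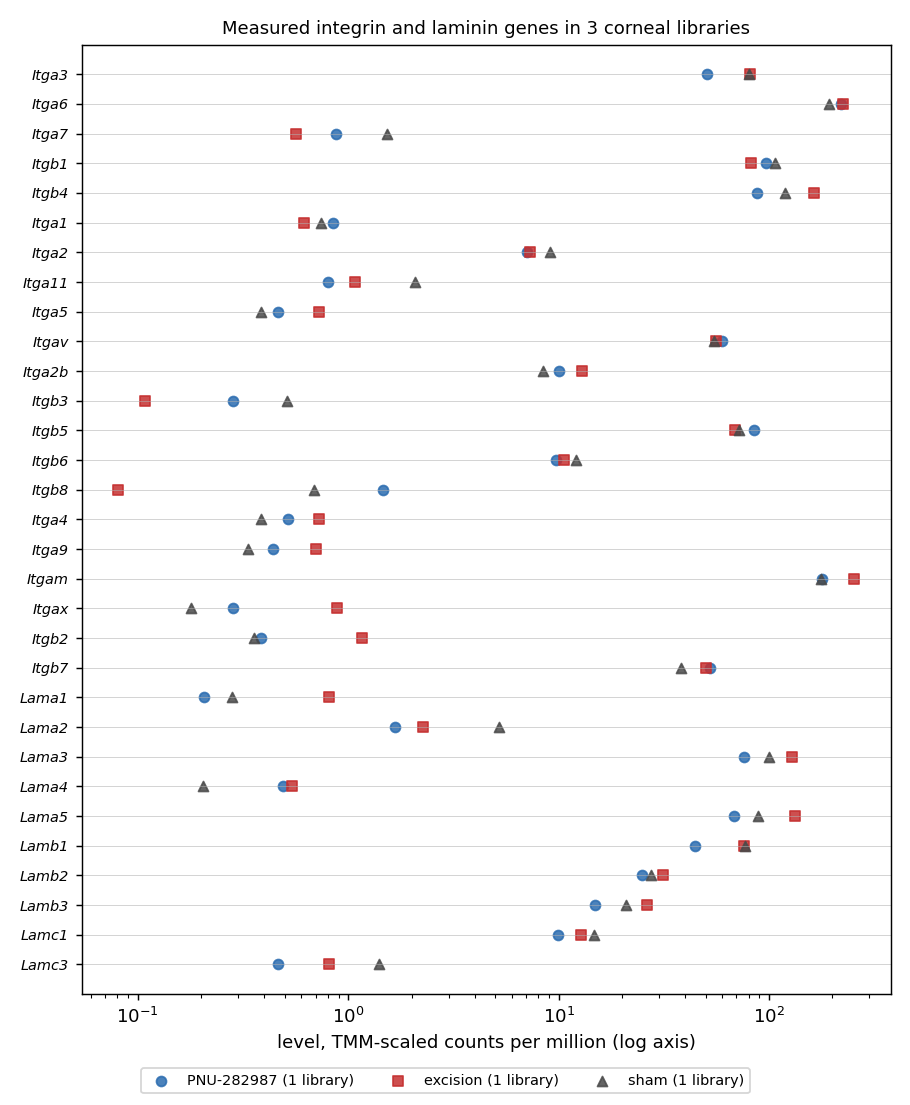
Levels of 31 measured members in TMM-scaled CPM (x, log axis), 1 symbol per library for PNU-282987, excision and sham; genes run down the page by receptor or ligand class. Most members with high levels have symbols close together, while low members such as Itgb8, Itgb3 and Lama1 lie apart.

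Excision against sham. The members that differed by 2-fold were rare transcripts, while the abundant chains lay within 2-fold. Of 32 measured members, 5 were called higher, against 4.01% of all measured genes, and 4 were called lower, against 5.48%. In either direction 9 of 32 members were called, a larger share than the 9.49% of all measured genes. The 5 higher ones were the leukocyte chains Itgax and Itgb2, Itga9, Lama1 and Lama4. None of these 5 reached 20 counts in sham, and each entered the measured set through the excision library, so their number is no support for a rise of the family. The 4 lower ones were Itga7, Itgb3, Itgb8 and Lama2. Of these Itgb3 reached 20 counts in sham alone, the library where it was highest, so its call is no support for a fall either. The median log2 ratio of the members was 0.17, beside -0.00262 over all measured genes. Among the 18 members with at least 100 counts in every library 0 passed 2-fold in either direction, where 2.31% of such genes did over the whole table.

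Leukocyte chains were higher in excision at low absolute counts. Itgax, an alpha chain of dendritic cells and macrophages, had 11 counts in PNU-282987, 33 in excision and 7 in sham. Excision was 4.96-fold higher than sham (95% interval 2.16 to 13.3). Itgb2, the beta chain shared by Itgal, Itgam, Itgax and Itgad, had 15 counts in PNU-282987, 43 in excision and 14 in sham, and excision was 3.23-fold higher than sham (1.73 to 6.40). Excision held the most counts of both genes. Itgae, the chain of lymphocytes that lie within epithelia, had 2, 18 and 2 counts in PNU-282987, excision and sham. Itgal, the chain of the main lymphocyte adhesion receptor, had 2, 11 and 3 counts, and Itgad had 0, 4 and 0. These last 3 fell short of the count minimum. Beside them, the macrophage and monocyte list had all 13 genes in the table and 12 measured. It summed to 36.2 CPM in PNU-282987, 56.1 CPM in excision and 27.7 CPM in sham. Of its genes 6 were called higher in excision than in sham, against 4.01% of all measured genes. Mrc1, among the 6, reached 20 counts in excision alone. The T and NK cell list, with 12 of 16 genes in the table, summed to 1.16 CPM in PNU-282987, 6.49 CPM in excision and 0.512 CPM in sham. Its 5 measured genes each reached 20 counts in the excision library alone. Its marker Cd3g had 0 counts in PNU-282987 and in sham. The neutrophil list, with 11 of 13 genes in the table, went the other way, at 35.6 CPM in excision and 76.6 CPM in sham. The part of these cells in the leukocyte chains was not tested.

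Several chains known from leukocytes and platelets were abundant while their partners were scarce. Itgam, the alpha chain of a macrophage and neutrophil complement receptor that pairs with Itgb2, had 6949 counts in PNU-282987, 9385 in excision and 6871 in sham. Excision was 1.44-fold higher than sham (1.39 to 1.48), short of the 2-fold mark. Its level per kb was 37.6 CPM in sham, where Itgb2 stood at 0.121 CPM per kb. Itgb7, which pairs with Itga4 or Itgae on lymphocytes, had 2027, 1863 and 1486 counts in PNU-282987, excision and sham, whereas Itga4 had 20, 27 and 15. Itga2b, the alpha chain of the platelet fibrinogen receptor, had 389, 478 and 328 counts, and its partner Itgb3 had 11, 4 and 20. In all 3 libraries the partner was thus a small fraction of these chains. The platelet list held 4 of its 10 genes in the table. Of those Gp1bb had 374, 519 and 329 counts, Pf4 had 1, 23 and 5, and Gp1ba, which defines platelets, had 0, 1 and 0. In GENCODE M21 the coding gene model Gm49368 overlaps Itgam on the same strand, so how reads over Itgam were assigned is uncertain. No coding gene overlaps Itgb7 or Itga2b there.

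Laminin and integrin chains of stroma, muscle and vessels differed in both directions. Lama2, the laminin alpha chain of muscle and peripheral nerve, had 65 counts in PNU-282987, 84 in excision and 204 in sham. Excision was 2.31-fold lower than sham (1.78 to 3.01). Itga7, a laminin receptor chain best known from muscle, had 34, 21 and 60 counts in PNU-282987, excision and sham and was 2.72-fold lower in excision than in sham (1.63 to 4.70). Sham was highest for both genes. Lama1, a chain of embryonic basement membranes and the lens capsule, had 8, 30 and 11 counts and was 2.87-fold higher in excision than in sham (1.40 to 6.35). Lama4, a chain of vessel walls, had 19, 20 and 8 counts and was 2.63-fold higher (1.11 to 6.90). Itga9, a receptor chain of lymphatic endothelium and epithelia, had 17, 26 and 13 counts and was 2.10-fold higher (1.04 to 4.46), a call lost when counts were scaled to library totals. Sham was the lowest library for Lama4 and Itga9, and PNU-282987 for Lama1. The vascular and lymphatic list, with all 12 genes in the table, summed to 6.59 CPM in PNU-282987, 10.6 CPM in excision and 7.53 CPM in sham. Of its 7 measured genes 3 were called higher in excision than in sham, against 4.01% of all measured genes. Each of those 3 reached 20 counts in the excision library alone. Kdr, with 89, 55 and 144 counts, was called lower, against 5.48% of all measured genes. Tek and Emcn, both below the count minimum, had 0 counts in sham. The keratocyte and stroma list, all 14 genes present, summed to 1669.9, 1534 and 2259.6 CPM, and the corneal endothelium list, with 11 of 12 genes in the table, to 1145, 531 and 1409.7 CPM. Their part in the values of Lama2, Itga7, Lama4 and Itga9 was not tested.

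Itgb8 had the widest range of the family. This beta chain pairs with Itgav and activates latent TGF-β. It had 57 counts in PNU-282987, 3 in excision and 27 in sham. Excision was 8.55-fold lower than sham (2.63 to 44.1). Itgb3, another partner of Itgav, had 11, 4 and 20 counts and was 4.75-fold lower in excision than in sham (1.59 to 19.1). Excision was the lowest library for both. The other Itgav partners differed little, with Itgb5 at 3293, 2572 and 2826 counts, and Itgb6, an epithelial beta chain that also activates TGF-β, at 377, 396 and 473. The retina list, all 11 genes in the table, summed to 31.3 CPM in PNU-282987, 5.41 CPM in excision and 19.0 CPM in sham. Its order of libraries was that of Itgb8. The corneal epithelium list had the same order, at 104346 CPM in PNU-282987, 88221 CPM in excision and 92417 CPM in sham. Several other lists were lowest in excision too but highest in sham. Among them were lens, at 788, 170.1 and 848 CPM in PNU-282987, excision and sham, and corneal endothelium, at 1145, 531 and 1409.7 CPM. The part of these lists in the values of Itgb8 was not tested.

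The abundant epithelial chains lay within 2-fold of sham in the excision library. Lama5, the alpha chain of most epithelial basement membranes, had 2648 counts in PNU-282987, 4920 in excision and 3475 in sham, and excision was 1.49-fold higher than sham (1.43 to 1.56). Itgb4 had 3399, 6083 and 4669 counts and was 1.37-fold higher (1.32 to 1.42). Lama3 had 2965, 4750 and 3906 counts and was 1.28-fold higher (1.23 to 1.34). Excision was the highest library for all 3. Itgb1, the partner of many alpha chains, had 3774, 3043 and 4152 counts and was 1.30-fold lower in excision than in sham (1.24 to 1.36). Long, GC-rich transcripts in general leaned the same way in these libraries. Over 544 coding genes with at least 100 counts in every library, a transcript of at least 4 kb and a GC content of at least 55%, the median log2 ratio of excision over sham was 0.30. For the 5 members of that class, Itga3, Itgb4, Lama5, Lamb2 and Lamb3, it was 0.34. The part of transcript length and GC content in the ratios of Lama5 and Itgb4 was not tested.

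**Figure D2:**
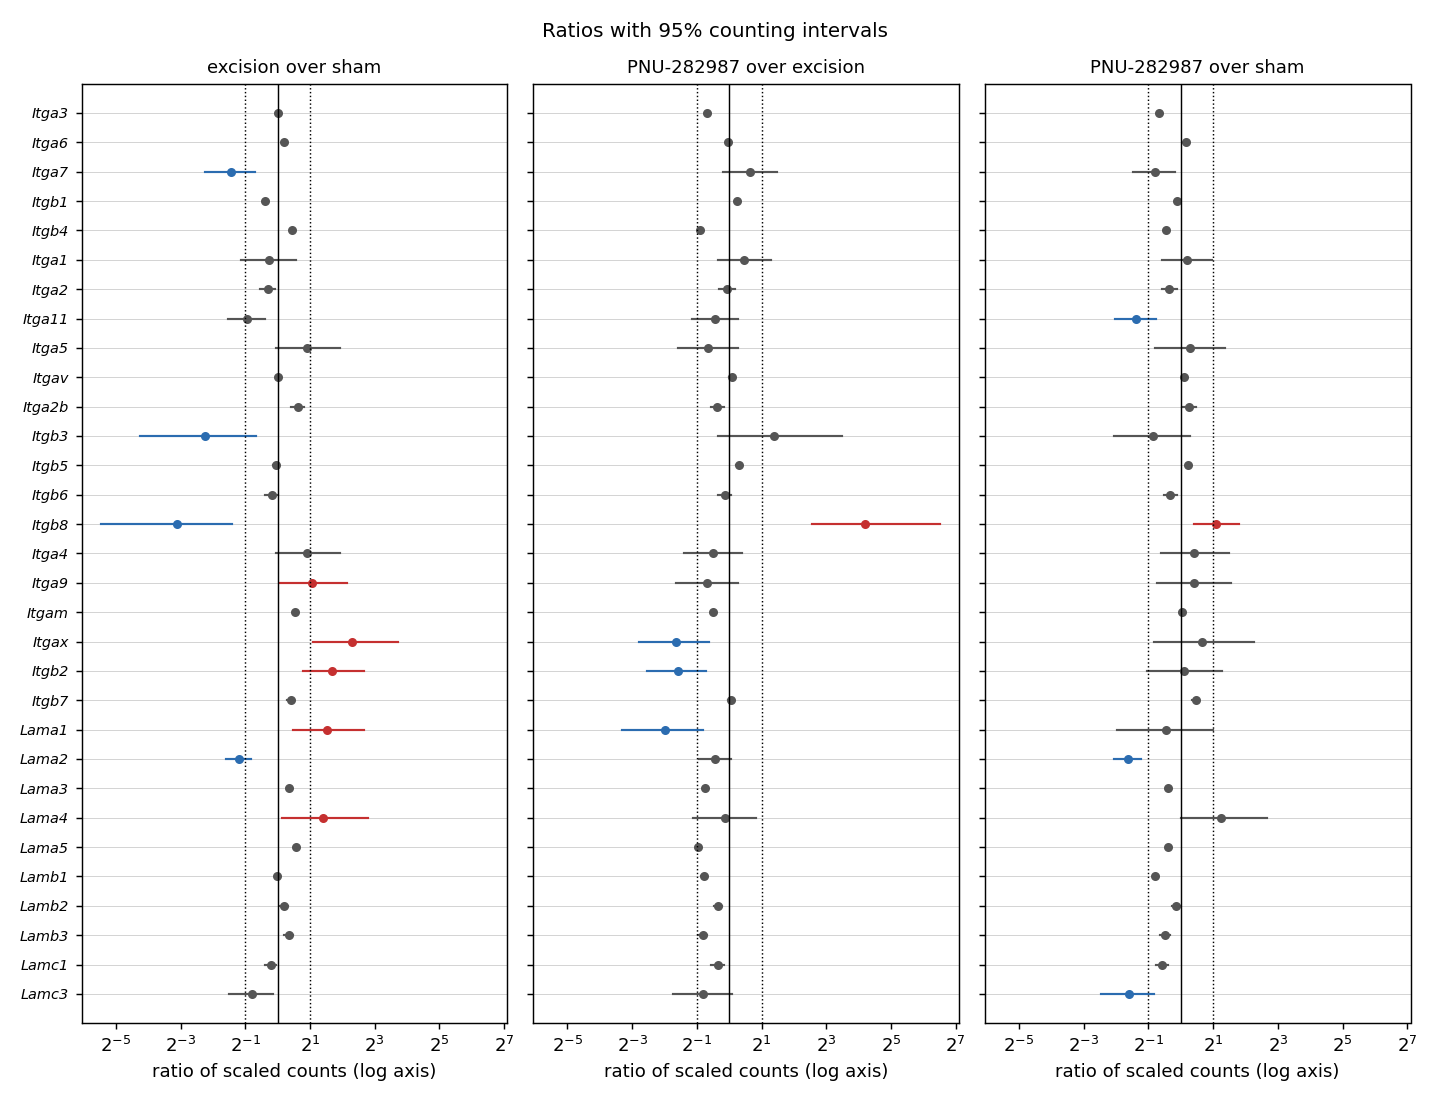
Ratios of scaled counts (x, log axis) for 31 measured members in the 3 comparisons, with horizontal lines for 95% counting intervals, red for members called higher, blue for members called lower and grey for the rest; dotted lines mark 2-fold. In the middle panel all 10 laminin chains drawn lie left of the line of equal levels, between a log2 ratio of -1.97 and -0.14, and Itgb8 lies far to the right.

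PNU-282987 against excision. Epithelial laminin chains, Itgb4 and Itga3 had fewer scaled counts in the PNU-282987 library, by less than 2-fold. Of 32 measured members, 1 was called higher, against 3.9% of all measured genes, and 3 were called lower, against 5.62%. In either direction 4 of 32 members were called, beside 9.52% of all measured genes. The median log2 ratio of the members was -0.40, beside 0.01 over all measured genes, and 24 of the 32 had a ratio below 1, as did 6976 of 14175 genes with a ratio. For the 11 laminin chains the median was -0.74, and all 11 had a ratio below 1. Of the 18 members with at least 100 counts in every library 0 passed 2-fold, against 2.13% of such genes in the table.

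Among the laminin chains with at least 100 counts in every library, Lama5, Lamb3, Lamb1 and Lama3 lay nearest to 2-fold. From the counts given above, Lama5 was 1.94-fold lower in PNU-282987 than in excision (1.85 to 2.04) and Lama3 1.68-fold lower (1.60 to 1.76). Lamb3, the beta chain of the hemidesmosomal laminin, had 580 counts in PNU-282987, 981 in excision and 816 in sham, and was 1.77-fold lower in PNU-282987 than in excision (1.60 to 1.96). Lamb1, the beta chain that joins Lama5 and Lamc1, had 1735, 2833 and 3009 counts and was 1.71-fold lower (1.61 to 1.81). PNU-282987 was the lowest library for all 4. Lamc3, at 18, 30 and 55 counts, was 1.74-fold lower, with an interval (0.941 to 3.32) that included equal levels, as did those of Lama2 and Lama4. Lamc1, the most widespread gamma chain, had 385, 472 and 577 counts, a difference of 1.28-fold (1.12 to 1.47). Lamb2, a beta chain found at vessels, nerve and Descemet's membrane, had 967, 1167 and 1078 counts, a difference of 1.26-fold (1.16 to 1.38).

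The receptor chains for these laminins did not share 1 value. Itgb4 was 1.87-fold lower in PNU-282987 than in excision (1.79 to 1.95). Itga3, which pairs with Itgb1 as a laminin receptor at the base of the epithelium, had 1981, 3021 and 3147 counts in PNU-282987, excision and sham and was 1.60-fold lower (1.51 to 1.69). Both lay near the laminin chains. Itga6, the partner of Itgb4, had 8502, 8314 and 7569 counts, a difference of 1.02-fold (0.992 to 1.05), and Itgb1 was 1.19-fold higher in PNU-282987 (1.13 to 1.24). When counts were instead scaled to the epithelial markers, Itgb4, Lama5, Lamb1, Lamb3 and Lamc3 passed 2-fold and the members called lower numbered 8.

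Ratios of partner chains within a library need no scaling between libraries, but a shift with GC content between libraries does not cancel in them. These pairs were chosen after their values were seen. The count of Itgb4 over that of Itga6 was 0.400 in PNU-282987 (95% interval 0.384 to 0.416), 0.732 in excision (0.708 to 0.756) and 0.617 in sham (0.595 to 0.640). The count of Itga3 over that of Itgb1 was 0.525 (0.497 to 0.554), 0.993 (0.944 to 1.04) and 0.758 (0.723 to 0.794) in the same order. No intervals overlapped for these 2 pairs, with PNU-282987 lowest and excision highest. Transcript GC content is higher for Itgb4 than for Itga6, and higher for Itga3 than for Itgb1. The part of GC content in the partner ratios was not tested. Lamb1 over Lamc1 was 4.51 (4.03 to 5.05), 6.002 (5.44 to 6.63) and 5.21 (4.77 to 5.71) in PNU-282987, excision and sham, with the intervals of PNU-282987 and excision apart. Lama5 over Lamc1 was 6.88 (6.18 to 7.67), 10.4 (9.48 to 11.5) and 6.02 (5.51 to 6.59), with excision alone standing apart. Itgb5 over Itgav was 1.43 (1.35 to 1.504), 1.24 (1.17 to 1.31) and 1.32 (1.24 to 1.39) in PNU-282987, excision and sham. Itgb6 over Itgav was 0.163 (0.146 to 0.182), 0.190 (0.171 to 0.212) and 0.220 (0.199 to 0.244), with the intervals of PNU-282987 and sham apart.

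**Figure D3:**
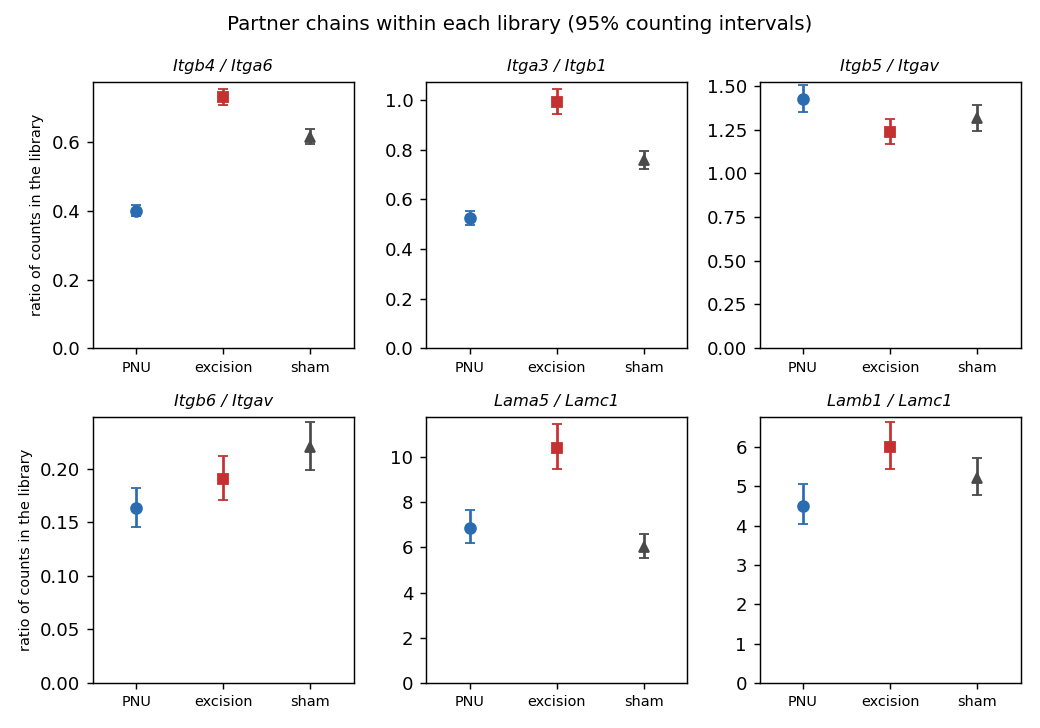
Ratio of counts of partner chains within each library (y, from 0) for 6 pairs, with libraries in the order PNU-282987, excision and sham on x and bars for 95% counting intervals. Itgb4 / Itga6 and Itga3 / Itgb1 are lowest in PNU-282987 at 0.400 and 0.525 and highest in excision at 0.732 and 0.993.

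The ratios of all genes moved with GC content in this comparison too, but not steadily with transcript length. Over the 544 long, GC-rich coding genes described above, the median log2 ratio of PNU-282987 over excision was -0.27, with quartiles of -0.53 and -0.07. The 5 members of the class had a median of -0.82, and of them Lamb2, at -0.34, lay between those quartiles. Over the 562 coding genes of at least 8 kb the median was -0.10, and for the 2 members among them, Lama3 and Lama5, it was -0.85. Shorter classes had medians of -0.06 below 2 kb, 0.09 from 2 to 4 kb, 0.06 from 4 to 6 kb and 0.01 from 6 to 8 kb. The 8 members from 4 to 6 kb had -0.42. From 50 to 55% GC the median was 0.01 over all genes and -0.55 for 4 members. How far length and GC content set these values was not tested.

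**Figure D4:**
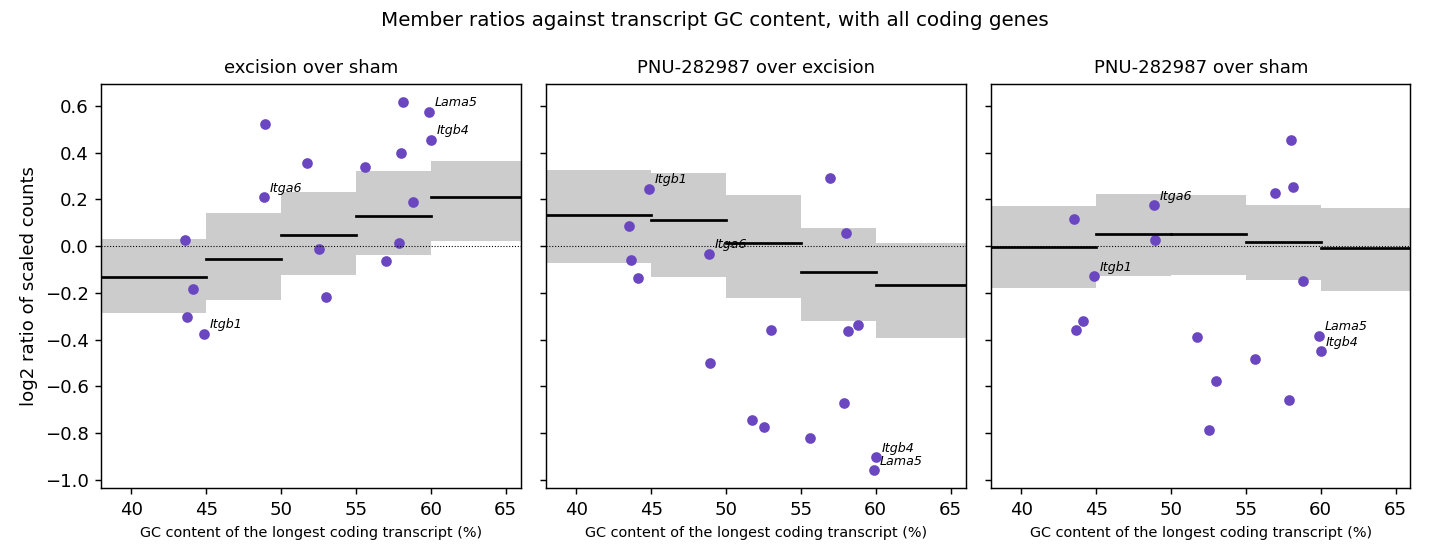
Log2 ratio of scaled counts (y) against the GC content of the longest coding transcript (x, percent) for 17 members with at least 100 counts in every library (points), with the median (black line) and quartiles (grey band) of all such coding genes in 5 GC classes; the outer classes are drawn to the axis limits. In the middle panel the median of all genes falls with GC content, from 0.13 below 45% to -0.17 from 60%, and Lama5 and Itgb4 lie below the band at -0.96 and -0.90.

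The promoters of 3 laminin chains that were lower together, Lama5, Lamb1 and Lamb3, are shown with that of Itgb8, which was higher. Each is the 250 bases before the most upstream start in the RefSeq table of GRCm38.p6, written 5′ to 3′ on the strand of the gene, and capitals mark matches to the GC box GGGCGG on either strand.
Lama5 (chr2:180225860-180226109, minus strand): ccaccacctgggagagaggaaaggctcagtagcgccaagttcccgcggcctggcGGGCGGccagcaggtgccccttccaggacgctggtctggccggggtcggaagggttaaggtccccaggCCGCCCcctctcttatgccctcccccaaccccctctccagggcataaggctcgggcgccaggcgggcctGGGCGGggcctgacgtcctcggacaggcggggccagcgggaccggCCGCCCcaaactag
Lamb1 (chr12:31265043-31265292, plus strand): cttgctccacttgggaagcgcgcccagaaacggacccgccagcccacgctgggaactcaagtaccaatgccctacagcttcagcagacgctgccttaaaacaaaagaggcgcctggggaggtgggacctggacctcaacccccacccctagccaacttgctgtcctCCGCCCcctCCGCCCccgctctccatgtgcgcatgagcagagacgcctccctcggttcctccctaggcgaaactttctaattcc
Lamb3 (chr1:193301744-193301993, plus strand): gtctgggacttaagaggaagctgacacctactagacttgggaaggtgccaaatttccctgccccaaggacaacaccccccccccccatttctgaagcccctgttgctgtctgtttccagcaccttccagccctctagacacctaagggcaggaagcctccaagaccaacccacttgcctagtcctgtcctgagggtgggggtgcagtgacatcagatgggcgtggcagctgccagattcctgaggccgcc
Itgb8 (chr12:119238277-119238526, minus strand): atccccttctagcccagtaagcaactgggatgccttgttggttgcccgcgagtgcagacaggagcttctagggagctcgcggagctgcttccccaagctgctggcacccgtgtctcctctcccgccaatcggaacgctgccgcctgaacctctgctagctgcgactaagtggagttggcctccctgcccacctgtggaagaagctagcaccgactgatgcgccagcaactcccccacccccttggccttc
Lama5 held 4 GC boxes and Lamb1 held 2, and Lamb3 and Itgb8 held 0. A GC box was present in 32.9% of 27025 promoters of that length and in 8 of the 23 members the table holds. The AP-1 letters TGAGTCA, on either strand, were in none of the 4 windows and in 4.43% of promoters, and the TATA letters TATAAA were in none of the 4 and in 13.0%. Matches are a description of letters only.

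Members past 2-fold between PNU-282987 and excision were low in counts. Itgb8 was 18.2-fold higher in PNU-282987 (5.91 to 90.7), on the 57 and 3 counts given above. Itgax was 3.14-fold lower (1.55 to 6.88), Itgb2 3.00-fold lower (1.63 to 5.81) and Lama1 3.92-fold lower (1.76 to 9.90). Each of these 3 reached 20 counts in the excision library alone. The macrophage and T cell lists were lower in PNU-282987 than in excision beside Itgax and Itgb2, with the sums given above, and the lens, retina, corneal endothelium and conjunctiva and gland lists were higher beside Itgb8. Of their measured genes, 13 of 14, 8 of 8, 8 of 11 and 7 of 13 were called higher, against 3.9% of all measured genes. Among those called, Nrl of the retina list reached the count minimum in the PNU-282987 library alone. The same held for Gp2, Muc5ac, Muc5b and Scgb2b2 of the conjunctiva and gland list. In corneal endothelium 1 was called lower, against 5.62%. By its sum the corneal epithelium list was higher too, at 104346 CPM in PNU-282987 and 88221 CPM in excision, with 0 of its 18 genes called. Itgam was 1.41-fold lower in PNU-282987 than in excision (1.37 to 1.46) and Itgb7 differed by 1.04-fold (0.976 to 1.11). Itgb5 was 1.22-fold higher (1.16 to 1.29), and Itgav, with 2310, 2079 and 2146 counts in PNU-282987, excision and sham, was 1.06-fold higher.

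PNU-282987 against sham. The members called different from sham were again scarce transcripts, Lama2, Lamc3, Itga11 and Itgb8. Of 32 measured members, 1 was called higher, against 2.58% of all measured genes, and 3 were called lower, against 4.96%. In either direction 4 of 32 members were called, beside 7.54% of all measured genes, and of the 18 members with at least 100 counts in every library 0 were called, against 1.09%. The median log2 ratio was -0.14 for the members and 0.000300 over all measured genes. For the 11 laminin chains it was -0.45, with 10 below 1 and Lama4 above. Lama2 was 3.12-fold lower in PNU-282987 than in sham (2.35 to 4.19). Lamc3, a gamma chain with a restricted distribution, had 18 counts in PNU-282987, 30 in excision and 55 in sham and was 3.04-fold lower (1.76 to 5.50). Itga11, a fibroblast receptor chain for fibrillar collagen, had 31, 40 and 81 counts and was 2.60-fold lower (1.70 to 4.07). PNU-282987 was the lowest and sham the highest library for all 3. Against the same sham library, excision was 1.92-fold lower for Itga11 (1.30 to 2.89) and 1.74-fold lower for Lamc3 (1.10 to 2.82). Beside these 3 genes, the keratocyte and stroma list stood at 1669.9 CPM in PNU-282987, 1534 CPM in excision and 2259.6 CPM in sham. By that sum its lowest library was excision, but the genes of the list did not share 1 order. Their median log2 ratio of PNU-282987 over excision was 0.03. Of them 2 were called higher and 1 lower there, against 3.9% and 5.62% of all measured genes. The part of this list was not tested.

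Itgb8 was 2.12-fold higher in PNU-282987 than in sham (1.32 to 3.49), a call lost when counts were scaled to epithelial markers. Among abundant chains the largest differences from sham were those of Lamb1, 1.72-fold lower (1.63 to 1.83), Itga3, 1.58-fold lower (1.49 to 1.67), and Lamc1, 1.49-fold lower (1.31 to 1.70). Itgb4 was 1.37-fold lower (1.31 to 1.43), Lamb3 1.40-fold lower (1.26 to 1.56), Lama3 1.31-fold lower (1.25 to 1.37) and Lama5 1.30-fold lower (1.24 to 1.37). Itgb7 was 1.37-fold higher (1.28 to 1.47) and Itgam differed by 1.02-fold (0.984 to 1.05). In this comparison the long, GC-rich genes had a median log2 ratio of 0.02, while the 5 members of that class had -0.45.

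The remaining members showed small or unresolved differences. Itga2, an epithelial collagen receptor chain, had 274 counts in PNU-282987, 273 in excision and 354 in sham. Itga1, another collagen receptor chain, had 33, 23 and 29, and Itga5, the fibronectin receptor chain, had 18, 27 and 15. Itga4, the receptor chain for Vcam1, was 1.89-fold higher in excision than in sham (0.972 to 3.83). For Itga1, Itga4 and Itga5 every interval included equal levels, so no difference was detectable at this depth. Itga10, a cartilage collagen receptor chain, had 17, 19 and 16 counts, and Itga8, the receptor chain for Npnt, had 4, 5 and 5, both short of the count minimum. In GENCODE M21 the coding gene Pelo lies within Itga1 on the same strand, and Hsd11b1 and G0s2 overlap Lamb3 on the opposite strand, so reads could be shared where counting ignored strand.

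Several type IV collagen chains and Npnt, partners of the members in the basement membrane, were called lower in excision than in sham. In the list of 22 such genes, 21 were measured. Between excision and sham 8 were called lower and 0 higher, against 5.48% and 4.01% of all measured genes. The median log2 ratio was -0.59, beside -0.00262 over all measured genes. The type IV collagen chains Col4a4 (891, 279 and 1840 counts in PNU-282987, excision and sham) and Col4a3 (803, 399 and 2375 counts) were 6.27-fold lower (5.52 to 7.14) and 5.66-fold lower (5.09 to 6.31) in excision than in sham. Npnt, a ligand of Itga8, had 2299, 692 and 5213 counts and was 7.16-fold lower (6.61 to 7.76). The corneal endothelium list stood at 531 CPM in excision and 1409.7 CPM in sham beside them, and its part was not tested. Between PNU-282987 and excision 2 were higher, Npnt and Col4a4, and 4 were lower, against 3.9% and 5.62% of all measured genes. Among the lower were Agrn, a heparan sulfate proteoglycan that binds laminin, at 2590, 5359 and 3730 counts and 2.16-fold lower (2.06 to 2.27), and Col7a1, the collagen of anchoring fibrils, at 490, 1071 and 858 counts and 2.29-fold lower (2.05 to 2.55). Between PNU-282987 and sham 6 were lower and 0 higher, against 4.96% and 2.58% of all measured genes.

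Of 6 hemidesmosome genes, 1 was called in any comparison, that of PNU-282987 against excision, where 9.52% of all measured genes were called. Plec, which links Itgb4 to keratin filaments, had 8334 counts in PNU-282987, 17350 in excision and 10356 in sham and was 2.18-fold lower in PNU-282987 than in excision (2.12 to 2.24). Col17a1, the membrane collagen of the hemidesmosome, had 25435, 34402 and 29875 counts, and Cd151, its tetraspanin, had 5841, 4685 and 5563. Excision was highest for Plec and Col17a1, as for Itgb4, and for Dst at 9674, 12792 and 8410 counts. It was lowest for Cd151. Krt5, at 767997, 724199 and 693158 counts, and Krt14, at 17896, 16496 and 9011, were highest in PNU-282987 by scaled counts. Against sham, Krt14 was 1.93-fold higher in excision and 1.997-fold higher in PNU-282987.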

How the data were processed

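RNA from 3 mouse corneal libraries, 1 per group, was measured by sequencing. The authors deposited whole-number counts of reads per gene, which were analysed without change. HTSeq and R 3.2.0 are named in the submitters' processing notes. Aligner, build, annotation and strand setting: not given in the sources used here. Columns were matched to samples by title and grouped by treatment label. Library sizes were scaled by TMM (edgeR 4.0.16, R 4.3.3), with factors of 0.980 for PNU-282987, 0.985 for excision and 1.04 for sham. Genes reaching 20 counts in any library were compared in Python 3.11.15 with SciPy 1.17.1, with exact conditional binomial (Clopper-Pearson) 95% intervals. A count of 0 was set to 3 counts. Intervals cover counting error only and not the spread between animals. They take reads as independent, and since reads are not independent molecules they can be too narrow. The ratio script was tested on simulated data. Size factors from DESeq2 1.42.0, library totals, epithelial scaling, other count minimums and 1.5-fold were tried as alternatives. The members and gene lists were chosen with earlier results of these data known. Measured members are named except 1, which is not reported here, though it is counted in totals, medians and calls. Of other lists at most 4 called genes per comparison or genes at 0 are named. Exceptions, chosen after their values were seen, are Gp1bb, the uncalled hemidesmosome genes and the uncalled genes of the closing section. The transcript classes were also chosen after their values were seen. Protein sequences are not shown here.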

Additional observations from a re-analysis of the deposited data

How the results depend on the processing

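The 32 measured members and 3 comparisons gave 96 ratios. Among the called ones, 0 changed direction under library totals, DESeq2 size factors, TMM without the lists of other tissues, or epithelial scaling. These settings changed 2, 1, 0 and 6 calls. Of all 96 ratios, called or not, 3, 0, 0 and 7 changed sign in that order, and 14, 0, 0 and 36 left their main counting interval. Total scaling called Itga11 lower and dropped Itga9 in excision against sham. In PNU-282987 against sham, the members called higher became 2 with DESeq2 size factors, which added Lama4, and 0 with epithelial scaling, which dropped Itgb8. In PNU-282987 against excision, epithelial scaling gave 8 members called lower and 1232 genes against 797. With no count filter, 5 members were called lower there. Over all genes it gave 948 higher against 568 in excision against sham, 1240 lower in PNU-282987 against excision, and 649 higher and 1080 lower against 366 and 703 in PNU-282987 against sham. With at least 100 counts in 1 library, 0 members were higher and 1 lower in excision against sham, 0 and 0 in PNU-282987 against excision, and 0 and 1 in PNU-282987 against sham, Lama2 being the one. The genes then numbered 237 higher and 313 lower, 224 and 287, and 127 and 199 in these comparisons. At 1.5-fold, 9 members were lower in PNU-282987 against excision and 6 in PNU-282987 against sham, and the genes numbered 1166 higher and 1281 lower, 1081 and 1582, and 712 and 1376. An alternative chosen after seeing the data required 20 counts in the second library of each pair. It left 0 members higher in excision against sham and 0 in PNU-282987 against excision, with 294, 257 and 162 genes higher. Fewer genes enter under the stricter minimums by construction. No paired analysis was possible because each group had 1 library. The ratios of partner chains involve no scaling or filter, but a shift with GC content between libraries can still enter them. No call was made for the 5 members below 20 counts in every library.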

Other observations

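The genes that switch integrins on and carry their signal centred near equal levels. Of 33 genes for integrin activation and focal adhesions, 31 were measured, and the median log2 ratio was 0.00 for excision over sham, -0.03 for PNU-282987 over excision and 0.05 for PNU-282987 over sham. In these comparisons 1, 2 and 1 genes were called, beside 9.49%, 9.52% and 7.54% of all measured genes. Fermt2, a kindlin that activates integrins, had 117 counts in PNU-282987, 52 in excision and 174 in sham and was 3.18-fold lower in excision than in sham (2.32 to 4.42). Tgfb1i1, a paxillin relative of focal adhesions, had 31, 72 and 93 counts and was 2.98-fold lower in PNU-282987 than in sham (1.97 to 4.64). Fermt3, the kindlin known from blood cells, had 3391, 2949 and 3667 counts, and the talin gene Tln1 had 2380, 2548 and 2316.

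Of 27 other integrin ligands in the table, 24 were measured. Between excision and sham 4 were lower and 1 higher, against 5.48% and 4.01% of all measured genes. The higher one was Tnc, the matrix protein tenascin C and a ligand of Itga9, with 47, 70 and 22 counts in PNU-282987, excision and sham, 3.35-fold higher in excision than in sham (2.05 to 5.68). Thbs1, a matrix glycoprotein, had 1677, 794 and 2016 counts and was 2.41-fold lower (2.22 to 2.62). Between PNU-282987 and excision 4 were higher and 0 lower, against 3.9% and 5.62% of all measured genes. Icam1, the ligand of Itgal and Itgam, had 138, 41 and 65 counts and was 3.22-fold higher in PNU-282987 than in excision (2.26 to 4.68). Fn1, which encodes fibronectin, the ligand of Itga5, stayed within 2-fold at 3609, 5572 and 5239 counts.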
